A study of Mus musculus with 4 samples.

Results

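DNA repair and checkpoint genes were followed in mammary tumours of mice as a set of 37 listed genes that sense DNA damage, signal it to the cell cycle, or repair it. A gene entered the set when a probe outside the controls carried its symbol or former symbol on the array. Probes under these names were found for 32 of the 37 genes, as 47 of the 41174 probes, and 31 genes were measured above the filter on dim probes, of 32659 genes or transcripts in all. The Bard1 probe was well above background on none (0) of the 4 arrays in either channel, and no level is given for this partner of Brca1. Xrcc5, Parp1, Topbp1 and Clspn carried other names on the array and were found through the accessions that the array lists for their probes. They stay outside every count of ratios and levels. No probe was found for Fancd2 by either route.

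The tumours came from 4 female FVB/N mice aged 26 weeks and were early mammary tumours of stage T1. In 2 mice (called Cdc25a;neu here) the transgenes MMTV-cdc25a and MMTV-neu were both present, and the other 2 (called neu) carried MMTV-neu, so that the neu transgene was common to all 4. MMTV is the promoter of the mouse mammary tumour virus, which is active mainly in mammary epithelium, and neu encodes the rodent form of Erbb2, a receptor tyrosine kinase. Cdc25a is the phosphatase that activates cyclin-dependent kinases by taking off their inhibitory phosphates, and damage signalling through Chek1 and Chek2 leads to its destruction. Each Cdc25a;neu tumour was set against 1 neu tumour on 2-colour Agilent arrays, and each of the 2 pairs was hybridised with both dye orientations, which makes 4 arrays. The pair is the replicate (n = 2), and errors are SDs between the 2 pairs. Arrays are named after the dye carrying the Cdc25a;neu tumour. Where a pair is given 2 values, the Cy5 array comes first. Values are log2 ratios of Cdc25a;neu over neu unless called levels, which are log2 intensities of 1 mouse.

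DNA breaks are found by sensor complexes that activate the kinases Atm and Atr, which in turn activate Chek2 and Chek1 and halt the cell cycle. Breaks are rejoined directly by end joining or copied from the sister chromatid by homologous recombination, the pathway of Brca1 and Brca2. Mispaired or damaged bases are removed by mismatch and excision repair. In mammary tissue this gene group is best known because inherited loss of BRCA1 or BRCA2 predisposes to breast cancer. Several of its genes are also transcribed mainly when cells enter S phase.

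Of the 31 measured members, 16 (51.6%) were higher in the Cdc25a;neu tumour of both pairs, where 31.9% of all genes were. In the other direction 7 members (22.6%) were lower in both pairs, where 28.1% of all genes were, and in 8 the pairs went opposite ways. On all 4 arrays 11 members were higher, against a background of 14.7%, and 2 were lower, against 12.4%. The sizes were small, with a median of 0.05 over the members (0.07 in pair 1 and 0.04 in pair 2) and 0.003 over all genes. No member passed the test: 0 of 31 had an adjusted p under 0.05 in limma, as did 0 of 32659 genes (0%), and the lowest adjusted p was 0.449 among the members and 0.222 among all genes. At an unadjusted p under 0.05 there were 7 members, 6 higher and 1 lower, and 3151 genes in all (9.65%). The levels of the 2 mice of one genotype did not overlap those of the other for 11 members, where the background is 19.8%. Of these, 9 were higher and 2 lower in Cdc25a;neu. Some gaps were narrow, with nearest levels in Cdc25a;neu and neu of 7.909 and 7.907 for Xpc and 7.170 and 7.167 for Xrcc6. For the 2 lower members they were 7.492 and 7.501 (Rad1) and 8.031 and 8.035 (Trp53bp1). Of the 32659, 15304 carried a current gene symbol, as the members do. Among these 29.6% were higher and 31% lower in both pairs, 1858 had an unadjusted limma p under 0.05 and 3531 had levels without overlap. With 2 mice against 2, the smallest p that an exact two-sided permutation test can give is 0.333.

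These counts depended on single arrays and on processing. Members higher in both pairs numbered 13 without the Cy3 array of pair 2 and 14 without the Cy3 array of pair 1. They numbered 18 without the Cy5 array of pair 2 and 20 with median centring. Members lower in both pairs numbered 4 without the Cy3 array of pair 1, with median centring in place of loess, and with a stricter filter on dim probes. The median was 0.03 without the Cy3 array of pair 2 and 0.12 with median centring. Of the 31 members, 20 kept their direction under all of the 11 settings that change the values or leave out 1 array (Atm, Chek2 and Wrn were measured in fewer), 13 of them higher and 7 lower. None of these settings left out a pair. The 7 include Ercc1 and Fancc, whose pairs went opposite ways, and Trp53bp1, whose probes disagreed. Swapping the dyes moved the ratio of 16 members by more than the ratio itself, which was so for 58.3% of all genes.

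**Figure D1:**
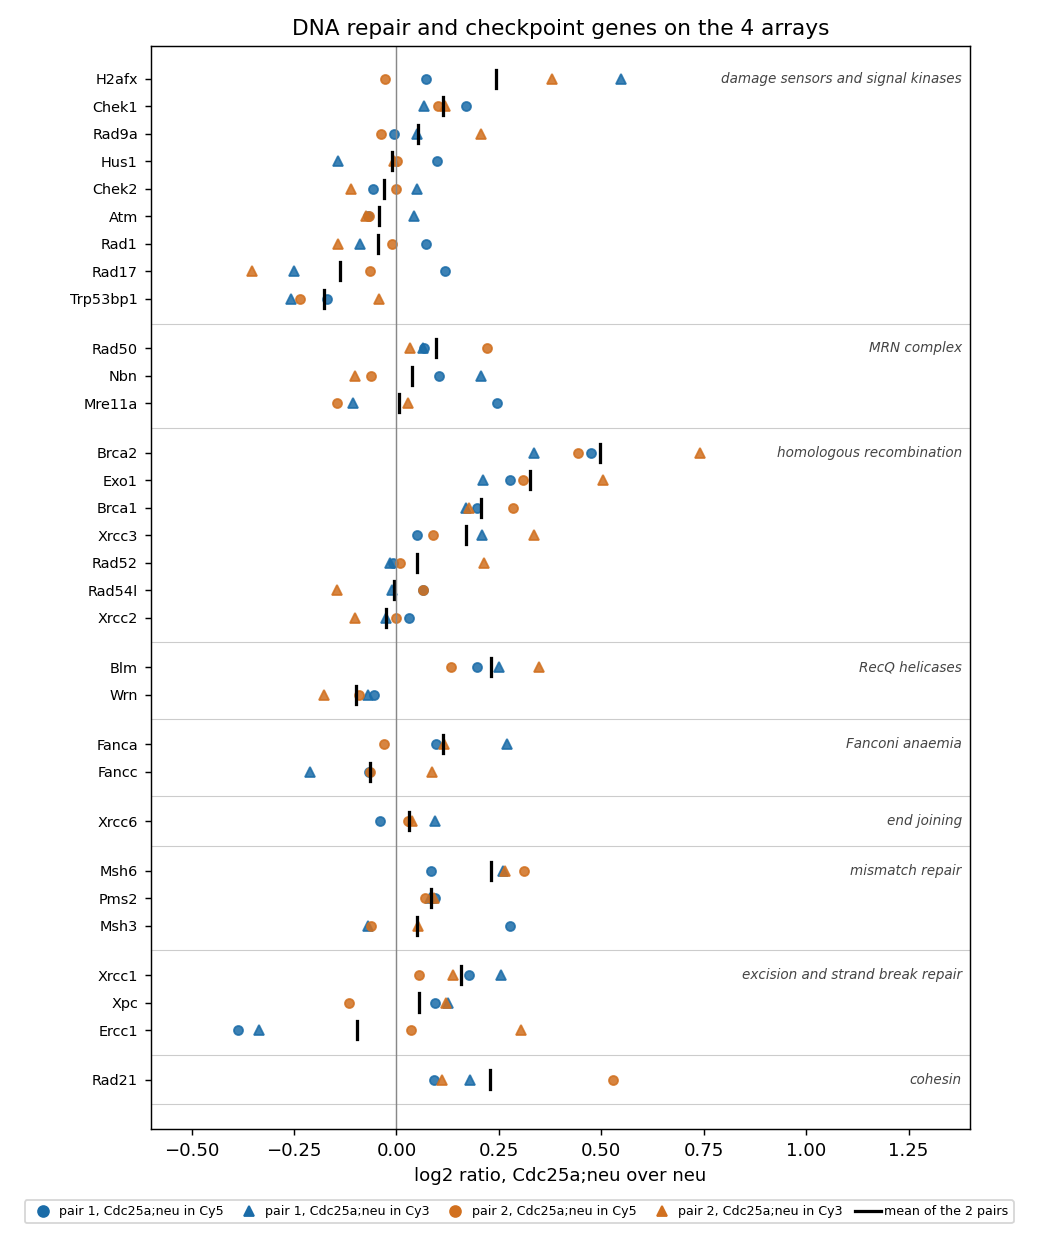
Log2 ratio of Cdc25a;neu over neu for the 31 measured members, grouped by role, with 1 point for each of the 4 arrays (colour for the pair, circle for Cdc25a;neu in Cy5, triangle for Cdc25a;neu in Cy3) and a bar at the mean of the 2 pairs. Brca2, Exo1, Brca1 and Blm lie above 0 on all 4 arrays, with means of 0.50, 0.33, 0.21 and 0.23, while most sensor and kinase genes lie around 0 and Ercc1 splits by pair.

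The 7 measured genes of homologous recombination held the largest ratio of the set. In both pairs 4 were higher and none (0) lower, with a median of 0.17. Brca2, a mediator of strand exchange in recombination, gave 0.48 on the Cy5 and 0.34 on the Cy3 array of pair 1, and 0.44 and 0.74 on those of pair 2. Its levels were 7.91 and 8.23 in the Cdc25a;neu mice and 7.51 and 7.64 in the neu mice. Both Cdc25a;neu tumours therefore lay above both neu tumours. The mean was 0.50 ± 0.13 (SD, n = 2 pairs), or 1.41-fold, with a limma adjusted p of 0.449. Over the processing settings it ran from 0.29 to 0.71, and it passed the limma test in 2 of them. The limma adjusted p was 0.00881 with median centring. It was 0.0343 when the 4 arrays were the units with the pair as a random block, a fit that counts dye swaps as replicates. The same 2 fits called 930 and 911 of 32659 genes, and Brca2 was the 1 member called of 31. With median centring Ube2a, a repair gene outside the set, passed too (limma adjusted p = 7.19e-05). Its pairs gave 1.47 and 0.13 in the main fit, so a pass with median centring need not mean that the pairs agreed. A second, dimmer Brca2 probe, well above background on all 4 arrays for Cdc25a;neu and on 2 for neu, gave 0.14 in pair 1 and 0.01 in pair 2, with a mean of 0.07.

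Exo1, a nuclease that resects DNA ends and also acts in mismatch repair, gave 0.28 and 0.21 for pair 1, then 0.31 and 0.50 for pair 2. Its levels were 7.89 and 8.11 in Cdc25a;neu and 7.64 and 7.70 in neu, again without overlap. The mean was 0.33 ± 0.12 (1.25-fold; limma adjusted p = 0.492). Brca1, a ubiquitin ligase subunit that steers breaks toward recombination, gave 0.20 and 0.17 for pair 1, then 0.28 and 0.18 for pair 2, the narrowest range over the arrays of these 3 genes. Its levels of 9.01 and 8.84 in Cdc25a;neu lay above the 8.83 and 8.61 of neu, although the neu mouse of pair 1 was nearly level with the Cdc25a;neu mouse of pair 2. The mean was 0.21 ± 0.03 (limma adjusted p = 0.496). A further probe matched to Brca1 only by accession was well above background on no array. Xrcc3, a recombination gene that acts on strand exchange intermediates, gave 0.05 and 0.21 for pair 1, then 0.09 and 0.34 for pair 2. Both Cy3 arrays were higher than both Cy5 arrays, and the levels of the genotypes overlapped (7.88 and 7.52 in Cdc25a;neu, 7.75 and 7.31 in neu).

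The remaining recombination genes were close to 0. Rad52, which anneals single strands, gave -0.01 and -0.02 for pair 1, then 0.01 and 0.21 for pair 2, so that its mean of 0.05 came from 1 array. Its second probe gave -0.03. Xrcc2, another recombination gene, gave 0.03 and -0.03 for pair 1, then -0.002 and -0.10 for pair 2 (mean -0.03), and its other 2 kept probes gave 0.07 and 0.05. The chromatin translocase Rad54l gave a mean of -0.01 and the same value with its second probe to within 0.002. The ratios of Rad54l were 0.03 in pair 1 and -0.04 in pair 2.

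**Figure D2:**
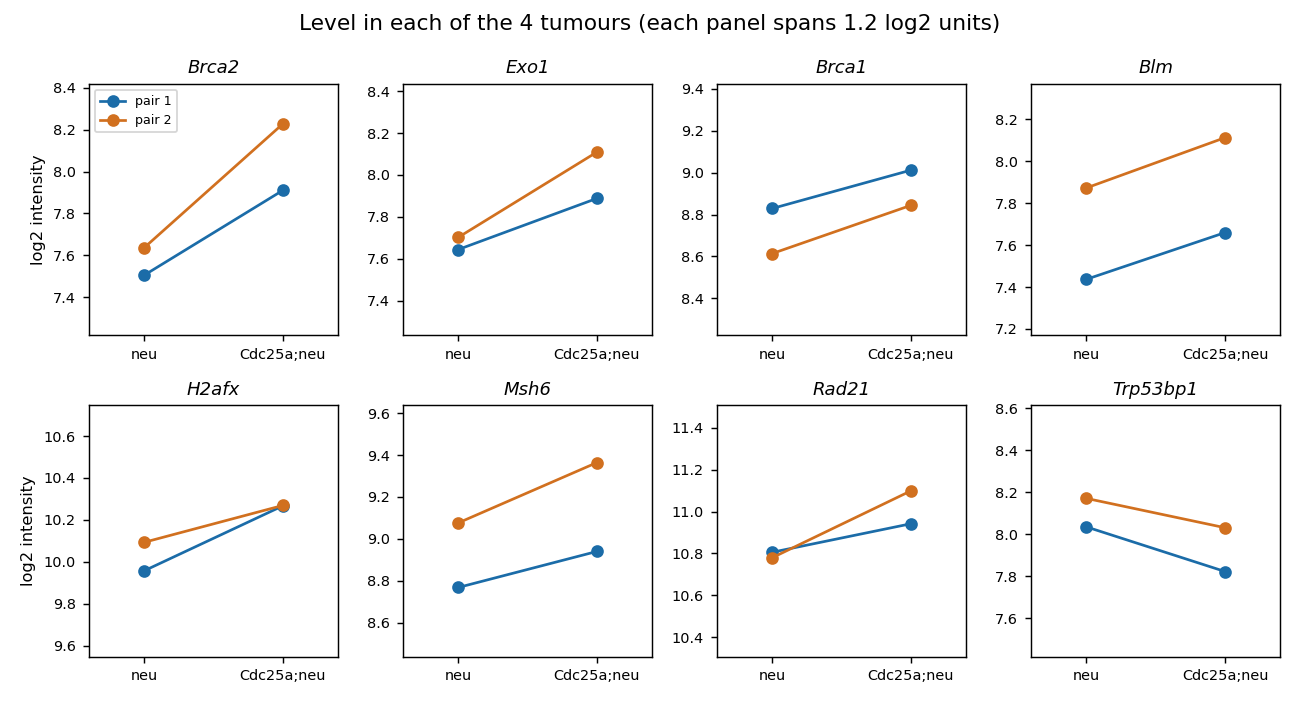
Level (log2 intensity after normalization within and between arrays) of 8 members in each of the 4 tumours, with a line joining the mice of a pair and the same span of 1.2 log2 units in every panel. Levels of Brca2, Exo1, Brca1, H2afx and Rad21 are higher in both Cdc25a;neu mice than in both neu mice and those of the Trp53bp1 probe under its own name lower, whereas Blm and Msh6 differ more between the pairs than between the genotypes.

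Promoters were set beside these values because several repair genes are known targets of the E2F factors, which drive transcription at the start of S phase. Upstream sequence (250 bases before the start, RefSeq, GRCm38.p6) was on hand for 27 of the 37 listed genes, and 4 E2F-type words (TTTGGCGC, TTTCCCGC, TTTGCCGC and TTTCGCGC, which can overlap) were searched on both strands. A word was found in 6 of 29 member windows (20.7%), those of Brca2, Chek2, Msh3, Xrcc6, Bard1 and Topbp1, and in 1.86% of all 32851 promoter windows of the same length. These windows include the listed genes that were not measured or were found by accession. The share was 15.8% (3 of 19 windows) for the proliferation genes and 4.26% (4 of 94) for the other repair genes. Among the measured members with a promoter it was found in 1 of the 8 genes higher on all 4 arrays and in 3 of the other 14. The word thus occurred at the largest ratio of the set, that of Brca2, and at the small ratios of Chek2, Msh3 and Xrcc6. A match describes these letters alone, and binding was not measured. Shown are the gene with the largest ratio (Brca2, chr5:150522371-150522620, plus strand), one with the same word and a ratio near 0 (Chek2, chr5:110839733-110839982, plus strand), and one with 2 overlapping words (Msh3, chr13:92355004-92355253, minus strand), each 5′ to 3′ along the gene and with the words in capitals.
Brca2: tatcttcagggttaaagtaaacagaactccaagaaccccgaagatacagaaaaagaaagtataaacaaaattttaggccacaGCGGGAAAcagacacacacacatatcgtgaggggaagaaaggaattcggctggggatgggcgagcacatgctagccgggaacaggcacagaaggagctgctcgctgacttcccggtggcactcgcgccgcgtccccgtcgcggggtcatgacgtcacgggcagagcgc
Chek2: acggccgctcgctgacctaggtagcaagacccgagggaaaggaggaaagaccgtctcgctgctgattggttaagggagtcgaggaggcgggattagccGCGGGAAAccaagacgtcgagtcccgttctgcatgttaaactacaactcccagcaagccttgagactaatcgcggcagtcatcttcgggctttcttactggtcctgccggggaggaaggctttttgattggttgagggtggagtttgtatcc
Msh3: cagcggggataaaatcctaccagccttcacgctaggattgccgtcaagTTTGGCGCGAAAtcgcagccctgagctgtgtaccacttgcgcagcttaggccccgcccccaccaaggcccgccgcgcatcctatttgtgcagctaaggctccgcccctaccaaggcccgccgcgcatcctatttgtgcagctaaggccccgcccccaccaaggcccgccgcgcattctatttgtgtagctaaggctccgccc
In Brca2 the word GCGGGAAA, the other strand of TTTCCCGC, begins 168 bases before the start, and in Chek2 the same word begins 152 bases before it. In Msh3 TTTGGCGC begins 202 bases before the start and runs into GCGCGAAA, the other strand of TTTCGCGC, at 198. The ratios of these 3 genes were 0.50, -0.03 and 0.05. Chek2 was dim, and its ratio was -0.10 with the scanner's processed signals and -0.18 with median centring. The second Brca2 probe gave 0.07.

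Damage sensors and signal kinases were the group with more lower than higher values. Of 9 measured genes, 3 were higher in both pairs and 6 lower, with a median of -0.03, where 31.9% and 28.1% of all genes were. On all 4 arrays 1 was higher and 1 lower. Among the lower genes Hus1 in pair 2 (-0.002) and Chek2 (-0.003), Rad1 (-0.009) and Atm (-0.012) in pair 1 were close to 0. The probes of Trp53bp1, also among them, disagreed. H2afx, the histone variant phosphorylated around breaks, had the largest ratio of the group, yet its value followed the dye. It gave 0.07 on the Cy5 and 0.55 on the Cy3 array of pair 1, and -0.03 and 0.38 on those of pair 2, so that both Cy3 arrays lay well above both Cy5 arrays. The means over the Cy5 and the Cy3 arrays were 0.02 and 0.46. Levels were 10.27 in both Cdc25a;neu mice and 9.96 and 10.09 in the neu mice, and the mean of 0.24 ± 0.09 did not pass the test (limma adjusted p = 0.502). Chek1, the kinase that acts downstream of Atr in S phase, gave 0.17 and 0.07 for pair 1, then 0.10 and 0.12 for pair 2. All 4 arrays were higher, but the Cdc25a;neu mouse of pair 2 (level 7.61) lay below the neu mouse of pair 1 (7.67), so that the genotypes overlapped, with a mean of 0.11 ± 0.005 (limma adjusted p = 0.555) and 0.01 from its second probe.

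Trp53bp1, which binds chromatin at breaks and favours end joining, gave -0.17 and -0.26 for pair 1, then -0.24 and -0.04 for pair 2. Its levels of 7.82 and 8.03 in Cdc25a;neu lay below the 8.04 and 8.17 of neu, the inner values being nearly equal. The mean was -0.18 ± 0.05 (limma adjusted p = 0.515). A probe matched to Trp53bp1 only by accession gave 0.05 and 0.12 for pair 1, then 0.47 and 0.15 for pair 2, with a mean of 0.20. The 2 probes thus stood on opposite sides of 0 on every array, and no direction is given for the gene. The probe under its own name stands in the counts of members lower in both pairs, lower on all 4 arrays and lower without overlap, and it is the 1 lower member at an unadjusted p under 0.05. Rad17, the loader of the checkpoint clamp, gave 0.12 and -0.25 for pair 1, then -0.07 and -0.35 for pair 2, lower on both Cy3 arrays (mean -0.14 ± 0.10), and -0.17 with a probe matched by accession.

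The clamp itself, made of Rad9a, Hus1 and Rad1, gave means of 0.05, -0.01 and -0.04, and no clamp gene had the same sign on all 4 arrays. The kinase genes Atm and Chek2 gave -0.04 and -0.03. Both were dim: Atm was well above background on 3 arrays for Cdc25a;neu and on 2 for neu, and Chek2 on 3 in each. The offset added before taking logs pulls dim ratios toward 0. With the scanner's processed signals Atm gave -0.13 and Chek2 -0.10. Median centring, which kept the offset, gave -0.15 and -0.18. The part of the offset in these ratios was not tested. The adaptor genes found by accession gave -0.05 (Clspn, which holds Chek1 near Atr and was above background on 2 arrays in each channel) and -0.002 (Topbp1, the activator of Atr).

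Of the Mre11a-Rad50-Nbn complex, which binds broken ends and recruits Atm, 1 of 3 genes was higher in both pairs. Rad50 gave 0.07 on each array of pair 1 and 0.22 and 0.03 in pair 2, with a mean of 0.10 ± 0.04. Nbn gave 0.11 and 0.21 for pair 1, then -0.06 and -0.10 for pair 2, so that each pair was of 1 sign and the pairs were opposite. Its second probe gave -0.02 in pair 1 and -0.12 in pair 2, the same order of the pairs. Mre11a gave 0.25 and -0.11 for pair 1, then -0.15 and 0.03 for pair 2, changing sign with the dye in both, with a mean of 0.01.

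The RecQ helicase genes, whose products unwind recombination intermediates, stood apart from each other. Blm, the helicase lost in Bloom syndrome, gave 0.20 and 0.25 for pair 1, then 0.13 and 0.35 for pair 2. Its levels were set apart more by pair than by genotype (7.66 and 8.11 in Cdc25a;neu, 7.44 and 7.87 in neu) and so overlapped. The pair ratios were nearly equal, at 0.22 and 0.24, with a mean of 0.23 ± 0.01 (limma adjusted p = 0.486). Wrn, the helicase lost in Werner syndrome, gave -0.06 and -0.07 for pair 1, then -0.09 and -0.18 for pair 2. It was among the dimmest members (above background on 2 arrays for Cdc25a;neu and 3 for neu), and its mean of -0.10 was -0.36 with the scanner's processed signals.

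Of the Fanconi anaemia genes, which repair crosslinks between strands, Fanca and Fancc were measured, and both encode parts of the core complex. Fanca gave 0.10 and 0.27 for pair 1, then -0.03 and 0.12 for pair 2. Levels of 7.99 and 7.96 in Cdc25a;neu lay above 7.80 and 7.92 in neu (mean 0.11 ± 0.10). A second probe gave -0.06. Fancc gave -0.07 and -0.21 for pair 1, then -0.07 and 0.09 for pair 2, with opposite pair means of -0.14 and 0.01.

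In mismatch repair 2 of 3 genes were higher in both pairs and none (0) lower. Msh6, which recognises single mispairs, gave 0.08 and 0.26 for pair 1, then 0.31 and 0.27 for pair 2, with a mean of 0.23 ± 0.08 (limma adjusted p = 0.502). Its levels were 8.94 and 9.36 in Cdc25a;neu and 8.77 and 9.08 in neu, which overlapped. Pms2, of the heterodimer that cuts the new strand, gave 0.09 and 0.08 for pair 1, then 0.07 and 0.09 for pair 2. These were the most even values over the arrays of any member, yet the second Pms2 probe gave 0.08 in pair 1 and -0.10 in pair 2. Msh3, which recognises small loops, gave 0.28 and -0.07 for pair 1, then -0.06 and 0.05 for pair 2, and its other kept probes gave -0.03 and 0.03.

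Excision and single-strand break repair held the member whose pairs differed most. Ercc1, which forms a nuclease with Ercc4 that cuts out bulky lesions, gave -0.39 and -0.34 for pair 1, then 0.04 and 0.30 for pair 2. Its levels were 7.77 and 8.22 in Cdc25a;neu and 8.13 and 8.05 in neu, and the mean of -0.10 ± 0.38 describes neither pair. Xrcc1, a scaffold for single-strand break repair, gave 0.18 and 0.26 for pair 1, then 0.06 and 0.14 for pair 2. Its levels of 9.94 and 9.79 in Cdc25a;neu lay above the 9.72 and 9.70 of neu, with a mean of 0.16 ± 0.09 (limma adjusted p = 0.543). The lesion sensor Xpc gave a mean of 0.06, and Parp1, the break-sensing polymerase found by accession, 0.004 in pair 1 and -0.19 in pair 2.

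In end joining the Ku subunit genes gave 0.03 (Xrcc6) and, by accession, 0.17 (Xrcc5). Xrcc5 was higher on all 4 arrays, at 0.04 and 0.22 for pair 1, then 0.01 and 0.41 for pair 2, with both Cy3 arrays above both Cy5 arrays. Rad21, the cohesin subunit that closes the ring around sister chromatids, gave 0.09 and 0.18 for pair 1, then 0.53 and 0.11 for pair 2. Its levels of 10.94 and 11.10 in Cdc25a;neu lay above the 10.81 and 10.78 of neu. Its mean of 0.23 ± 0.13 (limma adjusted p = 0.525) leaned on 1 array of pair 2.

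**Figure D3:**
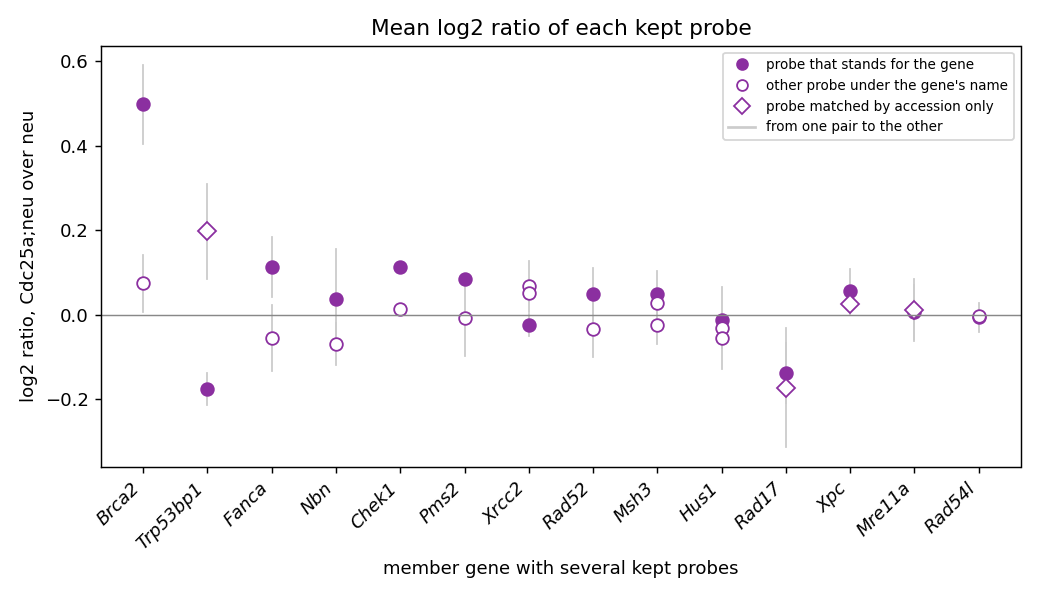
Mean log2 ratio of Cdc25a;neu over neu for each kept probe of the members with several, with grey lines from one pair to the other. The probes of Brca2 (0.50 and 0.07) and Trp53bp1 (-0.18 and 0.20) are farthest apart, and those of Rad54l coincide.

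The second probe mattered for more genes than these. Of the 10 measured members with several kept probes under their own names, 6 had probes of opposite sign (Fanca, Msh3, Nbn, Pms2, Rad52 and Xrcc2) and Brca2 had the widest range, 0.42. When the mean of all kept probes stood for a gene, the median over the members was 0.03. Probe sequences were not used here.

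A wider list of 101 repair and checkpoint genes outside the set did not lean one way. Of the 88 measured, 30 (34.1%) were higher in both pairs and 28 (31.8%) lower, with a median of 0.02, and 0 passed in limma, with 12 at an unadjusted p under 0.05. Of its 14 genes of resection and homologous recombination, 8 were higher in both pairs and 3 lower, with a median of 0.07. Of 12 genes of Atm and Atr signalling, 2 were higher in both pairs, 6 lower and 4 opposite, with a median of -0.08, where 28.1% of all genes were lower in both. Of the 6 cohesin and SMC genes, 5 were lower in both pairs and none (0) higher, while Rad21 was higher in both. None (0) of the 6 was lower on all 4 arrays, and Smc3 in pair 1 (-0.002) and Stag2 in pair 2 (-0.005) were close to 0. The difference between these groups was not tested.

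Among its genes of 1 sign on all 4 arrays, the largest higher ratio was that of Ube2a, a ubiquitin-conjugating enzyme of damage tolerance, at 1.47 in pair 1 and 0.13 in pair 2, so that its mean of 0.80 rests on pair 1. The recombination gene Rad51d gave 0.34 and 0.94 in the pairs, and the uracil glycosylase gene Ung 0.64 and 0.30. Fanci, the partner of Fancd2, gave 0.45 and 0.33, and the fork protection gene Tipin 0.24 and 0.39. In the lower direction stood Rpa2, of the single-strand binding complex, at -0.31 and -0.49, and the polymerase gene Polb at -0.26 and -0.50. The excision genes Rad23b, Ercc4 and Xpa gave means of -0.39, -0.31 and -0.22, and the glycosylase gene Ogg1 -0.28. Ercc4, the partner of Ercc1, was lower in both pairs (-0.35 and -0.27), while Ercc1 was so in pair 1 alone. These values are those of the brightest probe of each gene. With the mean of all kept probes Rad51d gave 0.222 in place of 0.638, and Ercc4 gave -0.115. Rad23b gave -0.223, Xpa -0.124 and Ogg1 -0.291 in that setting.

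Proliferation genes, many of them transcribed with the S phase part of the set, were higher by more. Of 19 measured, 17 were higher in both pairs, where 31.9% of all genes were, and 1 was lower, with a median of 0.42. An unadjusted limma p under 0.05 was found for 14, where 9.65% of all genes had one, though 0 passed in limma (lowest adjusted p 0.438). The list was chosen with earlier results of these data known, so its direction here is a description and no independent yardstick. The helicase subunit gene Mcm6 gave 0.46 ± 0.01, the primase gene Prim1 0.50 ± 0.03 and the cytokinesis gene Ect2 0.71 ± 0.04. By the brightest probe of each gene, Brca2 alone among the members reached the median of this list. With the mean of its kept probes Brca2 gave 0.29, which is below 0.42. Their part in the members' values was not tested.

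**Figure D4:**
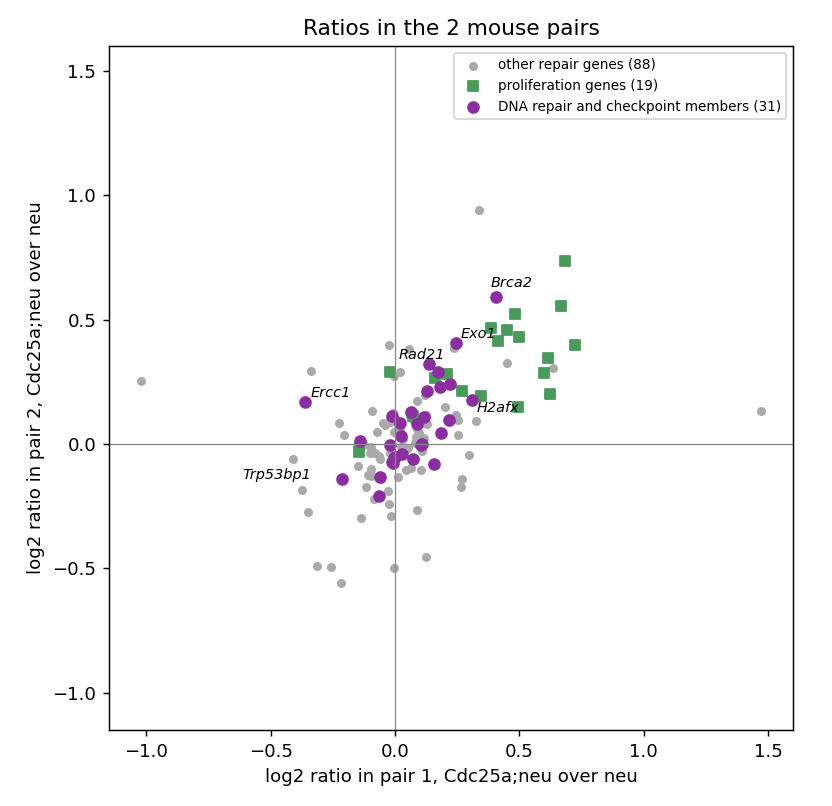
Log2 ratio of Cdc25a;neu over neu in pair 2 (vertical) against pair 1 (horizontal) for the 31 members, 88 other repair genes and 19 proliferation genes. Most members cluster near 0, Brca2 by its brightest probe (0.41 and 0.59) lies among the proliferation genes, and Ercc1 (-0.36 and 0.17) sits in the quadrant of opposite pairs.

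Markers of cell types were set beside these values, and 0 of 29 passed the limma test (lowest adjusted p 0.222), with 5 at an unadjusted p under 0.05. All 5 fat cell markers were lower in both Cdc25a;neu tumours, with a median of -1.31 in pair 1 and -2.51 in pair 2, led by the adipsin gene Cfd at -3.55 and -3.54. Of 5 luminal epithelium markers, 1 was higher in both pairs and 3 lower (median -0.15). The keratin genes Krt8 and Krt18 were at levels of 13.79 to 14.61, and each luminal marker other than Krt19 was well above background on all 4 arrays in both channels. The median of endothelium markers was 0.12 in pair 1 and 0.20 in pair 2, and that of T cell markers 0.01 and 0.09. The medians of macrophage markers (-0.16 and 0.30), basal markers (-0.06 and 0.17) and fibroblast markers (-0.36 and 1.32) went opposite ways in the pairs, although the fibroblast gene Dcn was lower in both (mean -0.83). Muscle markers had medians of -0.06 and -1.19. The part of these markers in the repair gene values was not tested, and in whole tumours fewer cells of a type and less RNA per cell cannot be told apart.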

How the data were processed

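Per the labels' protocols, RNA from 4 tumours was extracted by mini-kit (Agilent), and oligo-dT primed linear amplification put in the Cy3 or Cy5 label. The deposited scanner files hold spot intensities for both channels and a log10 ratio of red over green, per the file headers. The authors' deposited value table holds natural log values, red over green. This was read from a comparison with the scanner's own ratio, with slopes of 2.27 to 2.29 and r of 0.982 to 0.992 across spots (a description within arrays). Its column medians were 0.0209, 7e-04, 0.0209 and 0.0078, and its centring is not given in the sources used. Agilent Feature Extraction is version 7.2 per the submitters' processing notes and 7.5.1 per the file headers.

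Deposited intensities were corrected by normexp (offset 50) and normalized by loess within arrays (limma 3.58.1, R 4.3.3), and log2 ratios were computed. Control spots and outlier flags were left out and spots of a probe averaged. Kept probes were well above background on 2 or more of the 4 arrays, in either channel, and each gene took its brightest one. Per array, 78.5% to 92.2% of spots were well above background in green and 82.7% to 87.9% in red. Swapped arrays were turned, the 2 arrays of a pair averaged, and the pair means tested against 0 (lmFit, eBayes, Benjamini-Hochberg over 32659 genes, threshold 0.05, two-sided). Levels per mouse are channel values after loess and Aquantile. The number of arrays limits the precision. Of 41174 probes, 18420 were named by accession, 1502 by symbol and 936 by synonym through RefSeq (GRCm38.p6), and the rest kept the array's name.

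Genes given array by array are Brca2, Brca1, Chek1, Exo1, H2afx, Blm and Rad21, the 6 further members of 1 sign on all arrays with the largest ratios, the 4 whose pairs were most opposite, and members whose probes differed in sign or by over 0.3. Rad17, Xrcc5 and the second probes of other genes were added after their values were seen. Of the other repair genes, the 6 largest of 1 sign on all arrays in each direction are named, apart from what is not reported here. The members and lists were chosen with earlier results of these data known. Alternatives covered background correction, normalization, source of the ratio, filter, choice of probe, variance model, pairing, arrays as units, and leaving out each array or pair.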

Additional observations from a re-analysis of the deposited data

How the results depend on the processing

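The test called 930 genes with median centring in place of loess (lowest limma adjusted p 3.68e-36) and 911 with the 4 arrays as units and the pair as a random block (lowest limma adjusted p 1.1e-04). In each of these fits 1 member of 31, Brca2, was called, beside the 930 and 911 of 32659 genes, and in the others 0. Separate channels per mouse with no replicate block called 0 members. The median of 0.049 and the counts of 16 and 7 are the same there by construction, because Aquantile leaves every ratio unchanged. No paired analysis beyond the pair ratios was possible because the pair is built into every ratio. Members lower in both pairs numbered 4 with median centring and 4 with the strict filter, and 4 to 9 when single arrays were left out. Those higher in both pairs numbered 20 with median centring and 13 to 18 when single arrays were left out. The members' median was 0.070 with processed signals, 0.120 with median centring, 0.079 with the authors' value table and 0.030 with the mean of kept probes, and 0.028 to 0.078 with an array or pair left out. For the other repair genes it was 0.040, 0.043, 0.048 and 0.002 in the same order, 0.032 with the scanner log ratio, and 0.005 to 0.025 with an array or pair left out. With an array or pair left out, 7 of the members given array by array turned: Ercc1 ran from -0.360 to 0.169, Nbn from -0.081 to 0.155, Fancc from -0.139 to 0.011, Mre11a from -0.082 to 0.094, Msh3 from -0.037 to 0.136, Rad52 from -0.012 to 0.111 and Xrcc2 from -0.051 to 0.002. With the mean of kept probes Nbn gave -0.016 and Xrcc2 0.031. Rad54l went opposite ways in the pairs too, and Rad54l, Hus1, Rad1, Rad9a, Xrcc6 and Xpc changed sign under at least 1 of the 11 settings. The cause of these changes was not tested. Dim members (Atm, Chek2, Wrn) lie near background, which limits their ratios.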

Other observations

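Among the wider repair list, 3 genes singled out after their values were seen went opposite ways in the pairs by more than any member. Mad2l2, which acts in translesion synthesis and in end protection, gave -1.02 in pair 1 and 0.25 in pair 2. Polm, a polymerase of end joining, gave -0.34 and 0.29, and Aptx, which repairs abortive ligation ends, 0.12 and -0.45. None of them passed the test (limma adjusted p of 0.774, 0.978 and 0.791).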
